A study of Homo sapiens with 4 samples.

Results

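The BCL2 family decides at the mitochondrial outer membrane whether a stressed cell lives or dies, and the 10 genes described here are its best-known human members. They were taken as the probe sets whose only gene symbol in the platform annotation is MCL1, BCL2, BCL2L1, BCL2A1, BCL2L11, PMAIP1, BBC3, BAX, BAK1 or BID. All 10 genes were found, each with 1 probe set, among 18417 genes and 33252 probe sets. RNA came from U266, a multiple myeloma line, and K562, a chronic myeloid leukaemia line that carries the BCR-ABL1 kinase. U266 cells received 15 µM atovaquone or its DMSO vehicle for 2 h, and K562 cells received 20 µM atovaquone or vehicle for 5 h. Atovaquone is a drug against malaria and Pneumocystis that inhibits mitochondrial complex III. Each of the 4 groups was 1 array of 1 RNA sample, so no difference below could be set against a spread between replicates, no test was run, and every ratio describes a pair of arrays. A bulk array cannot tell fewer cells that carry a transcript from less of it in each cell.

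The family works through 3 kinds of protein. Survival members (MCL1, BCL2, BCL-XL from BCL2L1, and BFL-1 from BCL2A1) bind and hold back the pore-forming effectors BAX and BAK. The BH3-only proteins BIM (BCL2L11), NOXA (PMAIP1), PUMA (BBC3) and BID occupy the groove of survival members, and some also activate the effectors directly. Myeloma cells commonly lean on MCL1. In BCR-ABL1 leukaemia the kinase keeps STAT5 active and so sustains BCL-XL, while it holds BIM down. MCL1 and BCL2L1 are also textbook targets of STAT3. NOXA binds MCL1 and BFL-1 selectively, and its gene is a known target of ATF4 in the integrated stress response.

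The promoters of the 2 genes with the highest ratios, PMAIP1 and BCL2L11, are shown first, because those genes carry the main difference below. RefSeq promoter sequences were at hand for 9 of the 10 genes, with 14 start sites in all. In each, the 250 bases before the start were searched on both strands for ACGTCA (a cyclic AMP response element core, bound by the ATF and CREB family), TGACGTCA (the full element, which contains the core), TGATGNAA (a C/EBP and ATF composite type), GTAAACA (forkhead), GAANNTTC (heat shock), TTCNNNGAA (STAT), TGANTCA (AP-1) and CACGTG (E-box). The PMAIP1 stretch covers chr18:59899746-59899995 on the plus strand of GRCh38.p14 and holds the core ACGTCA, in capitals, beginning 56 bases before the start. The BCL2L11 stretch covers chr2:111120664-111120913 on the plus strand and holds the forkhead letters, in capitals, beginning 223 bases before the start. BCL2A1 was set beside them with its ratios, below 0 in both lines, already known. Its motif is of the C/EBP and ATF composite type, not the ACGTCA of PMAIP1 or the forkhead letters of BCL2L11. Its last 100 bases before the start, chr15:79971197-79971296 on the minus strand, hold TGATGCAA, in capitals, beginning 63 bases before the start. Whether any of these motifs bears on the ratios was not tested.
PMAIP1: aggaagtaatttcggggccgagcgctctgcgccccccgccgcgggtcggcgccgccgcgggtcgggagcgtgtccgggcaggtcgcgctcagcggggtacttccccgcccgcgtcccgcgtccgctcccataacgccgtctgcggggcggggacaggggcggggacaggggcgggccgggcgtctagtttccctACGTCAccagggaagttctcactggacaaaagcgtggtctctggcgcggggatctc
BCL2L11: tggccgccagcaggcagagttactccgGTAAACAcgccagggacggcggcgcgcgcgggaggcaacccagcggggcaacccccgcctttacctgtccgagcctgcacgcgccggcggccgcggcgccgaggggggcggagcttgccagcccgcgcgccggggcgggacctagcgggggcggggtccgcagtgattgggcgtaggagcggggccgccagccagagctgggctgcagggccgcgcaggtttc
BCL2A1: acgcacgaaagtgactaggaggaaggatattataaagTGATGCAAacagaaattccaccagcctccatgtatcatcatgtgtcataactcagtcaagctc
Each of these motifs also occurs in promoters of other genes. Among 35116 human promoter stretches of the same length, 7.10% held ACGTCA, 1.65% TGACGTCA, 3.14% TGATGNAA and 2.98% GTAAACA. The remaining matches were 4 copies of CACGTG in BAX, 1 copy of CACGTG and TGANTCA each in BBC3, TTCNNNGAA in BCL2A1, GAANNTTC in BAK1, and CACGTG in 2 overlapping BID stretches. The shares over all stretches were 6.34% for CACGTG, 6.57% for TGANTCA, 6.57% for TTCNNNGAA and 5.78% for GAANNTTC. BCL2 and BCL2L1 held none of the 8 motifs in these windows.

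In sum, plasma cell markers were higher on the U266 arrays, and erythroid and megakaryocytic markers on the K562 arrays. All 8 plasma cell markers examined lay at or above the low-signal floor in U266, and 5 of 8 did so in K562. The intensities of all 8 summed to 36098 on the atovaquone array and 34145 on the vehicle array in U266. In K562 all 8 summed to 5308 and 4479. The floor is each array's 40th percentile of intensity, between 305.3 and 330.7. Of 7 erythroid and megakaryocytic markers with a probe set, 3 lay above it in U266 and all 7 in K562. The 7 together summed to 2874 and 2723 with atovaquone and vehicle in U266, and to 22137 and 21603 in K562. Of 8 markers of T cells, B cells, monocytes, fibroblasts and epithelium, 3 lay above the floor in U266 and 6 in K562. All 8 summed to 9210 and 8974 in U266 and to 7941 and 7828 in K562. Single genes weigh heavily in these sums, such as JCHAIN at 10691 and VIM at 7241 on the U266 vehicle array. The plasma cell marker CD38 went the other way, with 396 in U266 and 668 in K562 with vehicle. The erythroid marker KLF1 had signal in both, with 1180 in U266 and 2632 in K562.

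With atovaquone, PMAIP1 had a higher intensity than with vehicle in both lines by over 1.5-fold, and BCL2L11 did so in U266. The other measured members differed by less than 1.5-fold in either line, and BCL2 in K562 was too dim on both arrays for a ratio. In U266, a size of 1.5-fold was passed upward by 2 of the 10 genes and downward by 0, where 1.00% of 11264 genes at or above the floor on at least 1 of the 2 arrays were higher and 0.142% lower. In K562 it was passed upward by 1 of 9 genes and downward by 0, where 1.55% of 11353 genes were higher and 0.687% lower. The median log2 ratio of the family, atovaquone minus vehicle, was −0.07 over 10 genes in U266 and −0.13 over 9 genes in K562. Over all measured genes it was −0.0001 in U266 and −0.0057 in K562. Ratios were centred on the median over probe sets measured on both arrays.

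**Figure D1:**
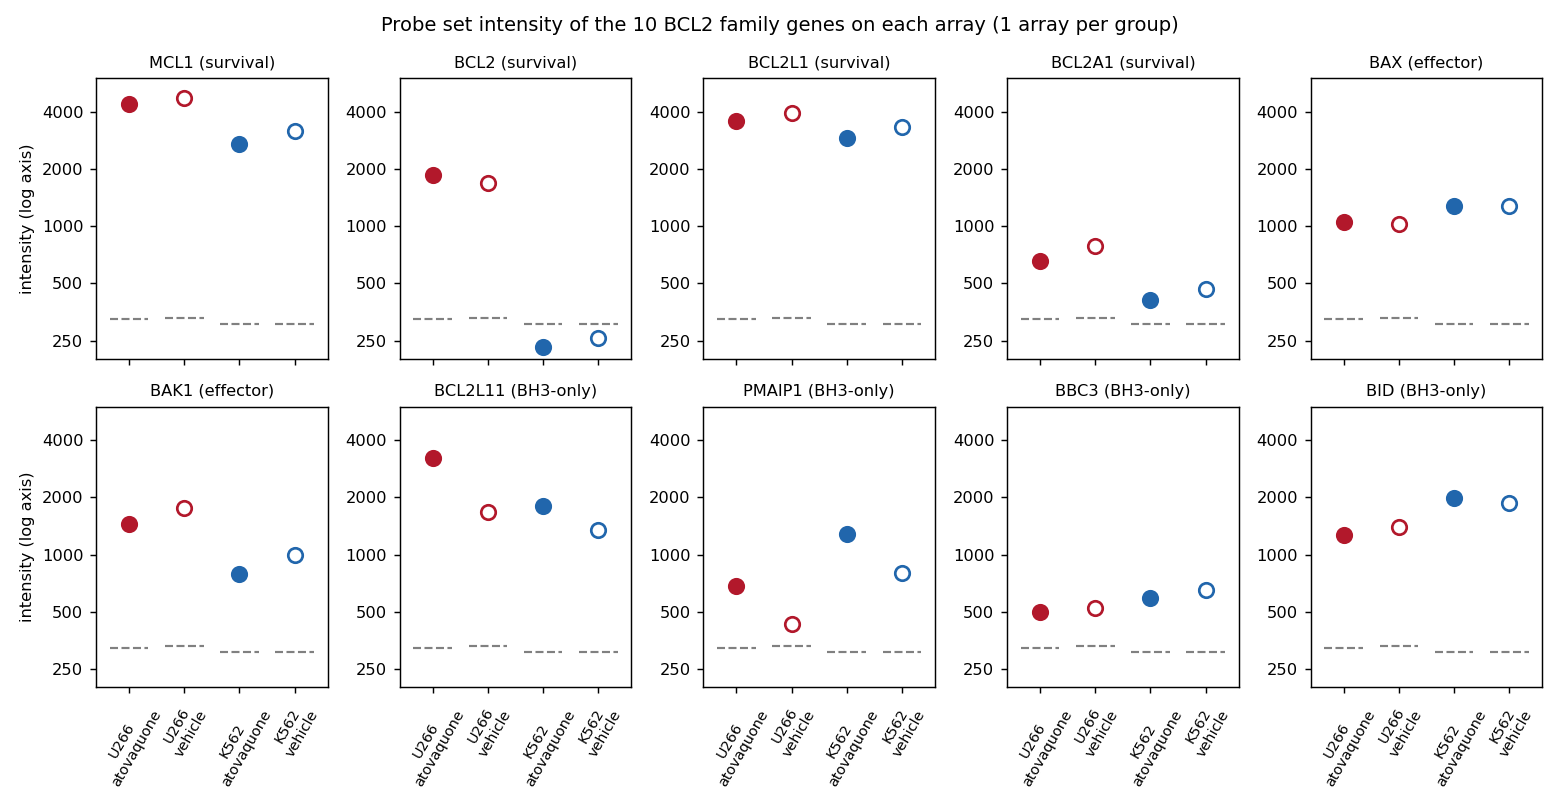
Intensity of each gene's probe set (log axis) on the 4 arrays, with filled circles for atovaquone, open circles for vehicle, red for U266 and blue for K562, and a grey dashed line at each array's floor. BCL2L11 and PMAIP1 stand higher with atovaquone in both lines, and BCL2 in K562 lies under the floor at 230.0 and 259.1.

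Among the BH3-only genes, BCL2L11, which encodes BIM, had the largest ratio of the family in U266. Its intensity was 3223 with atovaquone and 1679 with vehicle in U266, a log2 ratio of 0.95 or 1.93-fold. Its ratio was exceeded by 39 of the 10731 genes with signal on both arrays. In K562 its intensity was 1803 with atovaquone and 1345 with vehicle, a log2 ratio of 0.43, and 376 of 10756 measured genes had a higher ratio. The U266 value lay outside the range of −0.28 to 0.34 that held the central 95% of measured genes, and the K562 value inside its range of −0.42 to 0.48. BIM has several splice forms, and 1 probe set reads them together.

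PMAIP1, which encodes NOXA, was at a similar ratio in both lines although dose and time differed between them. Its intensity was 679 with atovaquone and 430 with vehicle in U266, a 1.59-fold higher value and a log2 ratio of 0.67. In K562 it was 1280 with atovaquone and 796 with vehicle, a 1.61-fold higher value and a log2 ratio of 0.69. Among genes measured on both arrays of a line, ratios above these belonged to 70 in U266 and 90 in K562. Genes with only a bound are not in these counts. Of 9222 genes measured on all 4 arrays, 8 (0.0867%) were at least 1.5-fold higher in both lines and PMAIP1 was 1 of them, while 0 were at least 1.5-fold lower in both. The U266 call depends on the floor. Under one set at the 60th percentile the vehicle value was too dim, and only a bound of at least 0.02 in log2 was left.

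BBC3 and BID, the other BH3-only genes, stood close to 0. BBC3, which encodes PUMA, had an intensity of 498 with atovaquone and 523 with vehicle in U266, and 591 with atovaquone and 650 with vehicle in K562. Its log2 ratios were −0.06 in U266 and −0.13 in K562. BID, which links caspase 8 to mitochondria after cleavage, had 1274 with atovaquone and 1399 with vehicle in U266, a log2 ratio of −0.13. In K562 it had 1995 with atovaquone and 1863 with vehicle, a log2 ratio of 0.10. BCL2L11 and PMAIP1 were thus the BH3-only genes with the highest ratios in both lines.

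Among the survival genes, 3 of 4 lay below 0 in U266, and all 3 measured in K562 did, where 5369 of 10731 measured genes lay below 0 in U266 and 5501 of 10756 in K562. With so few genes these signs are a description. MCL1, a short-lived protein from a short-lived mRNA, had an intensity of 4421 with atovaquone and 4719 with vehicle in U266, a log2 ratio of −0.08. In K562 it had 2725 with atovaquone and 3167 with vehicle, a log2 ratio of −0.21, and 1458 of 10756 genes were lower. BCL2L1 had 3596 with atovaquone and 3930 with vehicle in U266 (log2 −0.12) and 2911 with atovaquone and 3349 with vehicle in K562 (log2 −0.20). Both genes are spliced to forms of opposite function, which 1 probe set cannot separate.

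BCL2A1, an NF-kB target that encodes BFL-1, had 653 with atovaquone and 786 with vehicle in U266, a log2 ratio of −0.26, and 345 of 10731 genes were lower. In K562 it had 408 with atovaquone and 465 with vehicle, a log2 ratio of −0.18. BCL2 was the survival gene with a ratio above 0, with 1850 with atovaquone and 1691 with vehicle in U266, a log2 ratio of 0.14. In K562 BCL2 lay under the floor on both arrays, at 230.0 with atovaquone and 259.1 with vehicle, and has no ratio. All 7 of these measured values lay inside the central 95% of genes of their line.

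Of the effectors, BAK1 lay below 0 in both lines and BAX close to 0. BAK1, whose product sits in the mitochondrial outer membrane, had 1445 with atovaquone and 1753 with vehicle in U266, a log2 ratio of −0.27. In K562 BAK1 had 792 with atovaquone and 998 with vehicle, a log2 ratio of −0.33. It was the lowest of the family in both lines, with 304 measured genes lower in U266 and 599 lower in K562. BAX, which moves from the cytosol to mitochondria on activation, had 1051 with atovaquone and 1024 with vehicle in U266 (log2 0.05). In K562 BAX had 1271 with atovaquone and 1276 with vehicle (log2 −0.0009), a value whose sign turned under 4 of 7 other settings. The setting that averaged probe sets could not change it, because BAX has 1 probe set.

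**Figure D2:**
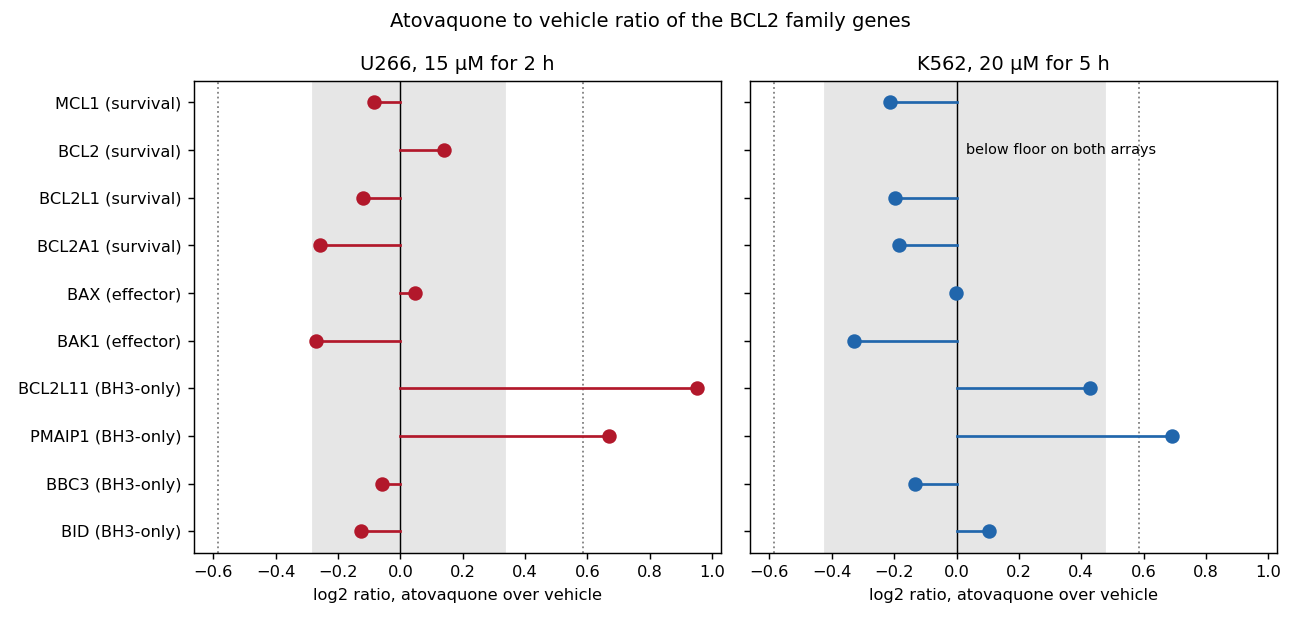
Log2 ratio of atovaquone over vehicle for each gene in U266 (left) and K562 (right), with the central 95% of all measured genes in grey and dotted lines at 1.5-fold in either direction. BCL2L11 at 0.95 and PMAIP1 at 0.67 pass the 1.5-fold line in U266, and PMAIP1 at 0.69 passes it in K562.

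Because survival and BH3-only proteins act against each other, the ratio of each death gene was also set against that of each survival gene in the same line, a difference in which the centring cancels. In U266, the log2 ratio of BCL2L11 exceeded that of MCL1 by 1.04, that of BCL2 by 0.81, that of BCL2L1 by 1.07 and that of BCL2A1 by 1.21. PMAIP1 relative to the same 4 genes lay between 0.53 and 0.93, with 0.75 relative to MCL1, its main partner. BBC3 lay between −0.20 and 0.20 and BID between −0.27 and 0.13. In K562, where BCL2 has no ratio, BCL2L11 lay between 0.61 and 0.64 and PMAIP1 between 0.87 and 0.90 relative to the other 3 survival genes. BID lay between 0.29 and 0.32 and BBC3 between 0.05 and 0.08. Differences were above 0 in 12 of 16 pairs in U266 and in all 12 pairs in K562. The share over other gene pairs was not computed. In K562 the 3 survival genes had nearly the same log2 ratio, from −0.21 to −0.18. BBC3 was itself below 0 there, at −0.13, so the K562 count does not show that every death gene was higher with atovaquone. The pairs share their genes and are not independent, and they compare changes, not amounts of protein.

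Of the 9 genes measured in both lines, 7 had ratios of the same sign in both, as did 53.4% of the 9222 genes measured on all 4 arrays, and with 9 genes nothing is read from that count. MCL1, BCL2L1, BCL2A1, BBC3 and BAK1 were below 0 in both lines, BCL2L11 and PMAIP1 above 0 in both, and BAX and BID differed in sign. Dose and time differ between the lines, so the values stand side by side without a test of the difference.

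**Figure D3:**
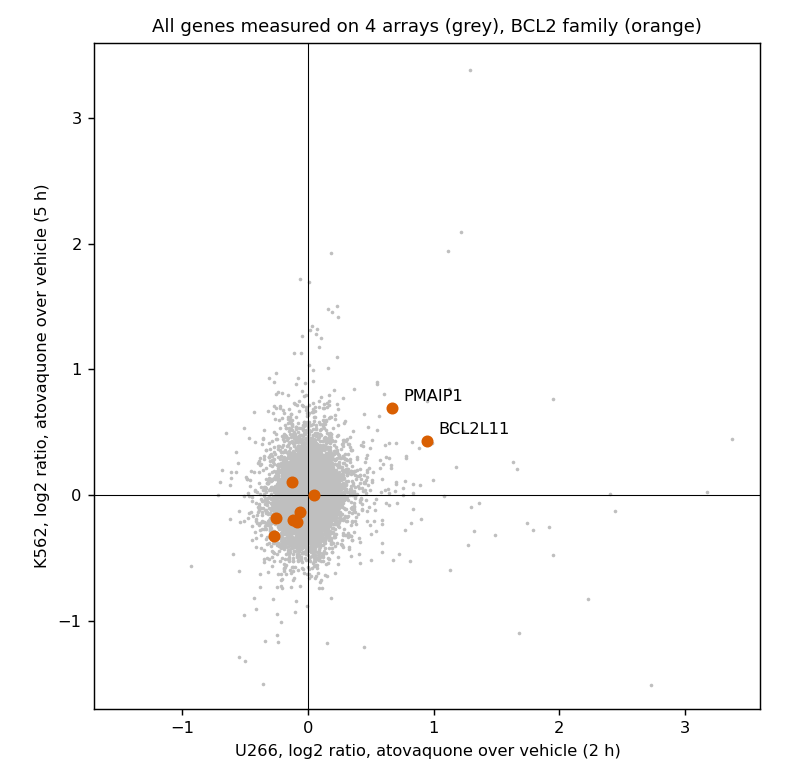
Log2 ratio of atovaquone over vehicle in U266 (horizontal) and K562 (vertical) for 9222 genes measured on all 4 arrays in grey, with the 9 measured BCL2 family genes in orange. PMAIP1 and BCL2L11 lie apart from the other 7, which sit inside the central cloud.

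On the vehicle arrays the largest difference between the lines, within the family, was in BCL2. BCL2 had an intensity of 1691 in U266 and 259.1 in K562, where it was under the floor, which puts U266 at least 5.63-fold above K562. Of the 10 genes, 1 differed by 2-fold or more toward U266, as did 11.2% of 12574 genes, and 0 did toward K562, as did 8.85%. The other survival genes were also higher in U266, by less. BCL2A1 had 786 in U266 and 465 in K562 (log2 difference 0.78), MCL1 had 4719 and 3167 (0.60), and BCL2L1 had 3930 and 3349 (0.26). All 3 values lay inside the range from −1.51 to 1.68 that held the central 95% of genes.

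The death genes were mixed at baseline. PMAIP1 had 430 in U266 and 796 in K562, a log2 difference of −0.86, with 866 of 9483 genes lower. With the floor at the 60th percentile, U266 was too dim and only an upper bound of −0.20 was left. BID had 1399 in U266 and 1863 in K562 (−0.39), BBC3 had 523 and 650 (−0.29), and BAX had 1024 and 1276 (−0.29). BAK1 went the other way, with 1753 in U266 and 998 in K562 (0.84), and so did BCL2L11 with 1679 and 1345 (0.35). The U266 atovaquone value of PMAIP1, 679, was below the K562 vehicle value of 796. The vehicle exposures lasted 2 h in U266 and 5 h in K562, and line and exposure time cannot be told apart here.

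**Figure D4:**
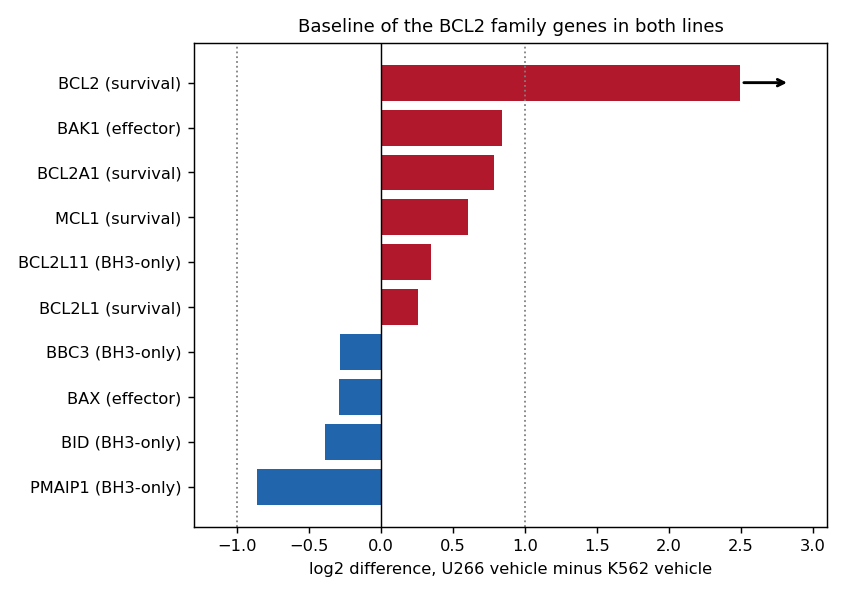
Log2 difference of U266 vehicle minus K562 vehicle for each gene, red where higher in U266 and blue where higher in K562, with dotted lines at 2-fold. BCL2 at 2.49 is a lower bound, shown by the arrow, and the other 9 genes lie between −0.86 and 0.84.

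The rest of the BCL2 family held no gene past 1.5-fold with atovaquone in either line. Of 15 further family genes and interactors, 14 had a probe set, and 12 in U266 and 10 in K562 were measured, with 0 at least 1.5-fold higher or lower in either line. Their log2 ratios ran from −0.25 to 0.12 in U266 and from −0.19 to 0.18 in K562. Among all genes, 1.00% were at least 1.5-fold higher and 0.142% lower in U266, and 1.55% and 0.687% in K562. A count of 0 among so few genes lies near those shares. At baseline 3 of 12 differed by 2-fold or more toward U266, as did 11.2% of 12574 genes, and 0 toward K562, as did 8.85%. The 3 toward U266 were named after their values were seen. BOK, a BAX-like effector, had 1695 in U266 and 374 in K562 (log2 2.20). MOAP1, a BAX-binding protein, had 1321 and 346 (1.96), and BIK, a BH3-only gene, was at least 2.25-fold higher in U266.

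Downstream of the mitochondria, 0 of 15 measured apoptosome and caspase genes in U266 and 0 of 16 in K562 were at least 1.5-fold different in either direction. Their median log2 ratios were 0.04 in U266 and −0.04 in K562. Of 5 measured inhibitor of apoptosis genes 0 passed that size in U266 and 0 in K562, with medians of −0.06 in both lines. The list of genes that control turnover of the MCL1, BIM and NOXA proteins had 0 of 9 genes at that size in U266 and 0 of 7 in K562, with medians of 0.02 and −0.07. Among all genes, 1.00% were at least 1.5-fold higher and 0.142% lower in U266, and 1.55% and 0.687% in K562. Counts of 0 in lists this small lie near those shares and are a description.

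Death receptors and their adaptors had 0 of 9 genes past 1.5-fold in U266 and 2 of 8 higher in K562, with medians of −0.05 and −0.02. In K562 the 8 log2 ratios ran from −0.53 to 1.01, with 4 above 0 and 4 below. Over all genes, 1.00% were higher in U266 and 1.55% in K562, and this list too was chosen with earlier results known. TNFRSF10B, the TRAIL receptor DR5 and a CHOP target, had 1358 with atovaquone and 676 with vehicle in K562, a 2.02-fold higher value. In U266 it had 390 with atovaquone and 352 with vehicle (log2 0.16). TNFSF10, which encodes TRAIL itself, had 605 with atovaquone and 377 with vehicle in K562 (log2 0.69), and 393 with atovaquone and 440 with vehicle in U266 (log2 −0.15).

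Transcription factors known to act on these genes passed 1.5-fold upward in 4 of 15 cases in U266 and 3 of 16 in K562, and downward in 0. Over all genes, 1.00% of 11264 were higher in U266 and 1.55% of 11353 in K562, and 0.142% and 0.687% were lower. The list was chosen with earlier results of these data known, so its counts are a description and show no enrichment. Medians over the measured members were 0.03 in U266 and 0.02 in K562. DDIT3, which encodes CHOP, an activator of BCL2L11 and TNFRSF10B in stressed cells, had 2661 with atovaquone and 1153 with vehicle in U266 (log2 1.22). In K562 it had 3331 with atovaquone and 783 with vehicle (log2 2.09). ATF3, a stress factor that binds the PMAIP1 promoter, was under the floor with vehicle in both lines, with ratios of at least 5.95-fold in U266 and at least 3.57-fold in K562.

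ATF4 itself, which is controlled mainly by translation, had log2 ratios of 0.10 in U266 and 0.36 in K562. JUN, an AP-1 subunit that can act on BCL2L11, had 3977 with atovaquone and 385 with vehicle in U266 (log2 3.38), and 657 with atovaquone and 484 with vehicle in K562 (log2 0.45). MYC was 1.79-fold higher in U266, with 683 against 385, and stood at 0.02 in K562. CEBPB was 2.26-fold higher in K562 and stood at 0.09 in U266. STAT3 stood at 0.03 in U266 and −0.13 in K562. FOXO3, a forkhead activator of BCL2L11, stood at 0.01 in U266 and was under the floor on both K562 arrays. Whether any of these factors had a part in the BCL2L11 and PMAIP1 values was not tested.

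**Figure D5:**
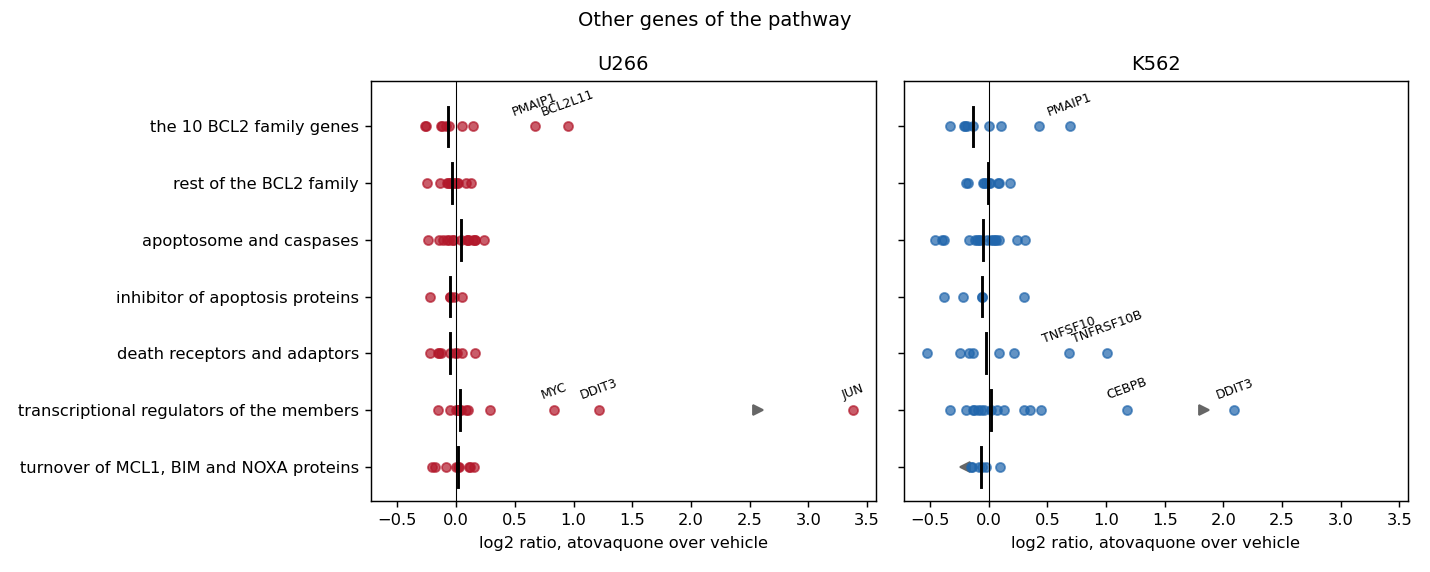
Log2 ratio of atovaquone over vehicle for every measured gene of the BCL2 family and of 6 related lists in U266 (left) and K562 (right), with a black bar at each list's median and grey triangles for genes that have only a bound. Measured genes at least 1.5-fold different are named, and outside the 10 they lie in the lists of death receptors and of transcription factors.

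For the leading gene of each line the nearest neighbours were sought among 9222 genes by Euclidean distance over 3 values, namely both atovaquone ratios and the baseline difference. Closest to BCL2L11 were IRF2BP2, a transcriptional corepressor, with log2 ratios of 0.88 in U266 and 0.37 in K562 at a distance of 0.14, then MED30, a Mediator subunit, with 0.78 and 0.29 at 0.22, and the small nucleolar RNA gene SNORA50A with 0.78 and 0.32 at 0.22. Closest to PMAIP1 were MDM4, which encodes a p53 inhibitor, with 0.48 and 0.54 at a distance of 0.33, the antiproliferative gene BTG1 with 0.51 and 0.44 at 0.39, and FBXL20, an F-box gene, with 0.28 and 0.44 at 0.47. With 4 arrays such likeness is a description of these arrays.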

How the data were processed

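The labels' protocols state that total RNA was extracted with Trizol and a spin column and labelled with biotin by the Affymetrix procedure. The authors deposited a processed intensity per probe set on a linear scale, with a lowest value of 1. How they corrected background, normalised and summarised probes is not given in the sources used here. Of 33252 probe sets, 19460 had 1 gene symbol and 1754 several in the platform annotation, and those with 1 gave 18417 genes, each represented by its brightest probe set. Intensities were put on the log2 scale and raised to a floor at each array's 40th percentile over annotated probe sets. A gene at or above it on both arrays is called measured, and one above it on 1 array has a bound. Centring subtracted the median log2 ratio over measured probe sets, which was −0.0096 in U266, −0.0048 in K562 and −0.02 between vehicle arrays. Each group was 1 array, so no test was run, and the number of arrays limits the precision. Sizes of 1.5-fold (atovaquone) and 2-fold (baseline) were used for counts. The 10 genes were all named, from related lists those past 1.5-fold (at most 6 per list) and DDIT3, ATF4, STAT3 and FOXO3, plus 3 nearest neighbours of each leading gene. The members and lists were chosen with earlier results of these data known. Some listed genes are not analysed here. Calculations used Python 3.11.15, pandas 2.3.3 and numpy 2.4.6 and were tested on simulated data.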

Additional observations from a re-analysis of the deposited data

How the results depend on the processing

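Quantile normalisation, no centring, no floor, a floor at the 20th or 60th percentile, an offset of 50 without a floor and the mean of all probe sets were tried. Each of the 10 genes has 1 probe set, so the mean of all probe sets could not change their values and is no check on them. With the floor at the 60th percentile, 1 gene instead of 2 was at least 1.5-fold higher in U266, because PMAIP1 on the vehicle array fell under it and kept only a lower bound of 0.02. The same floor left BCL2 at baseline with a lower bound of 1.43 in place of 2.49. At baseline it left PMAIP1 with an upper bound of −0.20 in place of −0.86 and BCL2A1 with a lower bound of 0.32 in place of 0.78. By its construction it also left BCL2A1 and BBC3 with only a bound or no value in both lines' atovaquone ratios, and it moved the K562 median of the family to −0.0029. The other settings left the counts of genes past 1.5-fold and 2-fold as they were. BCL2L11 ran from 0.94 to 0.96 in U266 and from 0.42 to 0.44 in K562, and PMAIP1 in K562 from 0.66 to 0.70. Small ratios near 0, such as BAX in K562 (−0.0057 to 0.0063), have no settled sign. No paired analysis was possible because each group has 1 array. Signal near the floor limits BCL2 in K562, PMAIP1 in U266, and BCL2A1 and BBC3 in both lines.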
